A study of Mus musculus with 6 samples.

Results

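The miR-465, miR-470, miR-743 and miR-871 family is a group of small miRNA genes packed into one stretch of the mouse X chromosome, and its level was read here in somatic cells of the testis. Members were chosen by name alone: every row for a known miRNA, either arm, of the stems miR-463, miR-465a to miR-465d, miR-470, miR-471, miR-741, miR-742, miR-743a, miR-743b, miR-871, miR-878, miR-880, miR-881, miR-883a and miR-883b. This gave 30 rows of 17 stems, of 1573 rows for known miRNAs and 61628 rows in all. One of the 30 is a joint row for miR-465a-3p, miR-465b-3p and miR-465c-3p, which share one sequence.

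Small RNA was sequenced from primary peritubular myoid cells of C57BL/6J mice, the contractile cells that wrap the seminiferous tubules. Cells in both groups had been isolated from testis and grown at 37 °C in medium with 10% fetal bovine serum. There were 3 libraries of untreated cells and 3 of cells given 50 nM ET1 (endothelin-1, a peptide that contracts smooth muscle) for 5 min. The labels give neither the age nor the number of the mice, and do not say whether libraries came from separate cultures, and p-values therefore describe only the spread among these libraries, which may be technical.

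A miRNA hairpin is cut into a 5p arm and a 3p arm, and the arm that is kept finds its target mRNAs mainly through its seed, bases 2 to 8. The X-linked genes studied here are rodent relatives of the fast-evolving miR-506 family and are known for expression that is strongly biased to the testis. They are best known from spermatogenic cells, where many stay active during meiosis while most X-linked genes are silenced, and they have also been found in Sertoli cells, the somatic nurse cells inside the tubule.

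The genes lie close together. The 19 precursors of these stems occupy chrX:66776757-66839125 on the minus strand of GRCm38.p6, a stretch of 62.4 kb, and none lies within a gene on the same strand in GENCODE M21. Slitrk2 lies 115 kb away on one side and Fmr1 1839 kb away on the other, with Mir201 and Mir547 between the cluster and Fmr1. All 32 mature names of the family matched RefSeq, as 30 distinct sequences with 24 seeds. The sequences on which the values turn are given first, 5′ to 3′, with the seed in capitals. The arms that made up most of the family's tags were these.
miR-470-5p: uUCUUGGAcuggcacuggugagu
miR-465a-3p, the same as miR-465b-3p and miR-465c-3p: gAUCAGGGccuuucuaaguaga

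The 5p arms of the miR-465 stems share the seed AUUUAGA and are shown because rows that differ by few bases behaved differently.
miR-465a-5p: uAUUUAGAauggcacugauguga
miR-465b-5p: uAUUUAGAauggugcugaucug
miR-465c-5p: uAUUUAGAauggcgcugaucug
Counted from the 5′ end, miR-465b-5p and miR-465c-5p differ by 1 base over 22, U13C, outside the seed. From miR-465a-5p to miR-465c-5p the changes are A14G and G20C over the first 22 bases, and from miR-465a-5p to miR-465b-5p they are C13U, A14G and G20C.

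The next arms are shown because both arms of a stem, or a seed held by more than one stem, enter the results.
miR-871-3p: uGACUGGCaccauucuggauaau
miR-871-5p: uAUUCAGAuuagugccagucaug
miR-743a-5p: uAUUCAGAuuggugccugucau
miR-743a-3p: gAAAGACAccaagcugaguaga
miR-743b-3p: gAAAGACAucaugcugaauaga
miR-741-3p: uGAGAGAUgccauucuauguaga
miR-471-3p: uGAAAGGUgccauacuauguau
miR-880-3p: uACUCCAUccucucugaguaga
miR-878-3p: gCAUGACAccacacuggguaga
The seed AUUCAGA is held by miR-871-5p and miR-743a-5p, which differ by G11A and U17A read from miR-743a-5p. The seed AAAGACA is held by miR-743a-3p and miR-743b-3p, which differ by C9U, A12U and G18A. The other shared seeds were AUUUAGA and AACUGCA, the latter of miR-883a-3p and miR-883b-3p. Of the 24 seeds, 1 is held by another known mouse miRNA, that of miR-743b-5p by miR-6948-5p.

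The hairpins show where these arms sit. They are Mir470, whose tags came almost only from the 5p arm (capitals), and Mir871, whose 3p arm (capitals) varied between libraries more than its 5p arm, and 1 of the miR-465c genes.
Mir470, chrX:66813951-66814025, minus strand: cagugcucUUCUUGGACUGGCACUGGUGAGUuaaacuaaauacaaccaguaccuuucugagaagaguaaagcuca
Mir871, chrX:66810428-66810504, minus strand: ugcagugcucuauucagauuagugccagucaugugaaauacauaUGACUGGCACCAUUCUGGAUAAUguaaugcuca
Mir465c-1, chrX:66825955-66826035, minus strand, 5p arm in capitals: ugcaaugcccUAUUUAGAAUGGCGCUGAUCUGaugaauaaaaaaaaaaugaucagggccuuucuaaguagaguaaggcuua

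The libraries held 18127265 to 20895432 tags, of which 4381927 to 8651018 were tags of known miRNAs. Levels are CPM, tags per 1000000 tags of known miRNAs, after TMM scaling (a correction that lines up the bulk of the miRNAs between libraries), and since a tag is a whole mature miRNA no length correction applies. Markers checked the label. Of 4 smooth muscle and myoid markers 3 reached 10 CPM in every library, led by miR-143-3p, which supports the contractile state of smooth muscle, at 10456 to 25167 CPM, and all 3 mesenchymal markers did. Markers of other testis and blood cells were also present. The sum over 7 meiotic and later germ cell markers, a list that also marks multiciliated cells, was 466 to 1478 CPM. In every library 4 of them reached 10 CPM. The highest was miR-34c-3p, at 227 to 604 CPM, while miR-34c-5p had 21.5 to 120 CPM and miR-449b 0 in all 6 libraries. The 6 markers of pluripotent and early germ cells summed to 19.3 to 68.0 CPM. Of these, 1 reached 10 CPM in every library, miR-292a-3p at 11.7 to 47.1 CPM, and miR-291a-3p was at 0. The 2 Sertoli and gonadal markers, miR-202-5p and miR-202-3p, both reached 10 CPM in every library and summed to 621 to 1905 CPM. The red cell marker miR-451a had 48.9, 88.4 and 673 CPM untreated and 38.1, 301 and 212 CPM with ET1. The other red cell marker, miR-144-3p, had 0 to 2.11 CPM. In a bulk culture, tags from myoid cells and tags from a minority of other testis cells cannot be told apart, nor can fewer cells of a type from less RNA per cell.

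The family made up a large share of the miRNA of these somatic cultures. In untreated libraries 1, 2 and 3 it took 4.37%, 7.91% and 5.401% of all known miRNA tags, and in ET1 libraries 1, 2 and 3 it took 6.36%, 11.0% and 6.56%. Library 2 of each group was the highest and the groups overlapped, at 5.89% ± 1.82 untreated and 7.98% ± 2.62 with ET1 (SD, n = 3 libraries each). Counting error was small against that spread, the widest 95% Wilson interval reaching 0.029 percentage points to either side. These intervals cover counting error only, since tags were amplified by PCR and not marked as single molecules. In its lowest library miR-470-5p alone, at 34499.5 CPM, was above the highest summed level of the germ cell or Sertoli markers. Those are different miRNAs, whose levels relative to miR-470-5p within a cell type are not known from these data. Which cells supplied the tags of miR-470-5p was not tested.

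**Figure D1:**
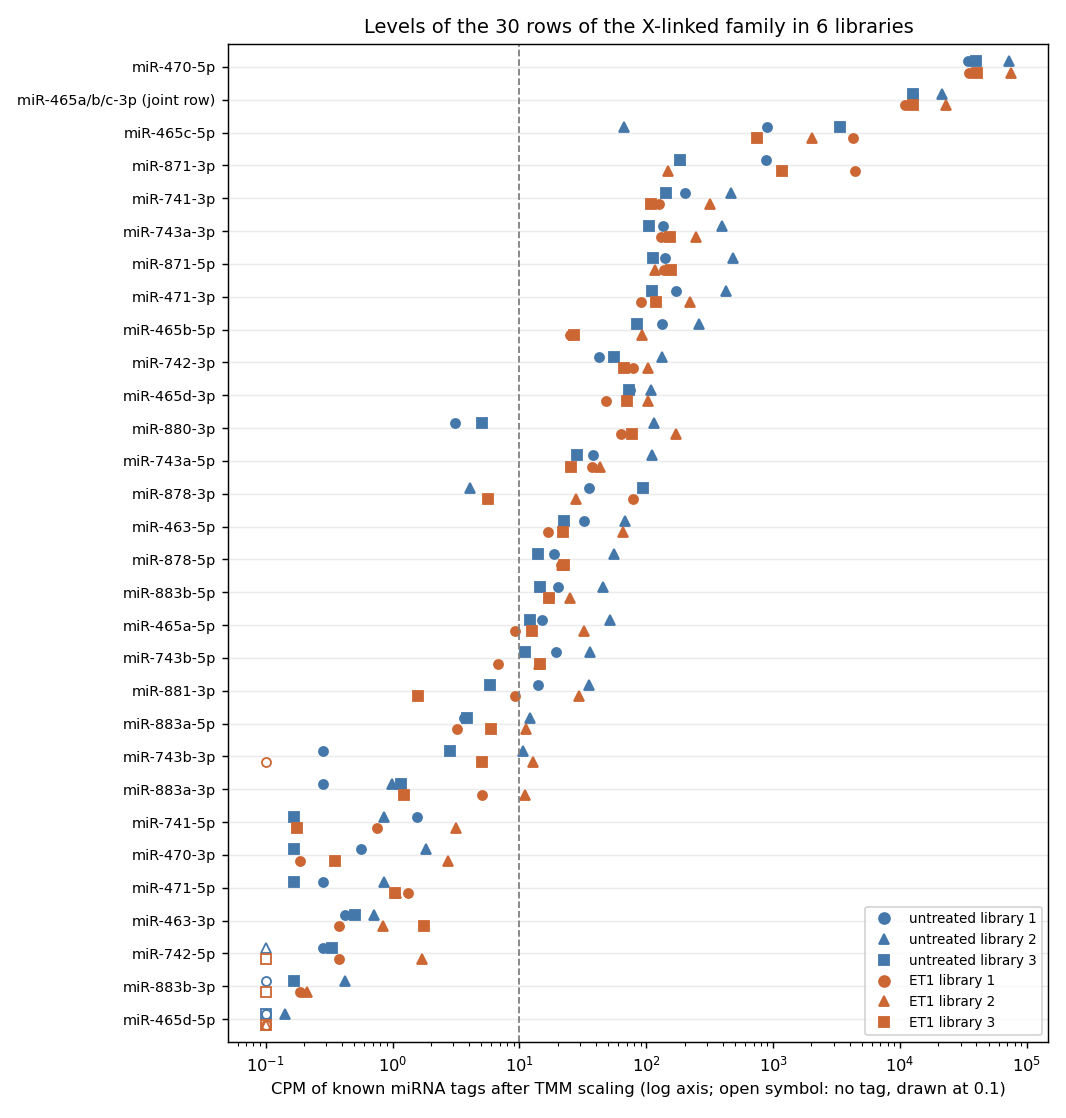
Level of each of the 30 rows in each of the 6 libraries, in TMM-scaled CPM on a log axis, blue for untreated and orange for ET1 with a symbol per library number; open symbols mark libraries with no tag and the dashed line the 10 CPM used to call a row expressed. The top 2 rows lie above all others in every library, and for most rows the triangles of library 2 lie to the right.

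Of the 30 rows, 15 were expressed, meaning at least 10 CPM in each of the 6 libraries, and the other 15 were low, with at least 1 tag somewhere. None had 0 tags in all libraries, and 26 had tags in every library. By the same measure 302 of the 1573 known miRNA rows, 19.2%, were expressed. Asking for 1 CPM in every library gave 21 rows of the family, and asking for 100 CPM gave 6. Of the 17 stems, 13 had an expressed row, when the joint 3p row is counted for miR-465a, miR-465b and miR-465c alike. For miR-465a the joint row was the only expressed one, so expression of that stem itself is not shown. The stems miR-743b, miR-880, miR-881 and miR-883a had none, and miR-880 and miR-881 were read from the 3p arm alone, their 5p arms having no row. miR-880-3p was low only through untreated libraries 1 and 3, at 3.10 and 5.03 CPM, against 63.7 to 173 CPM elsewhere.

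The abundance sat in a pair of rows. miR-470-5p, which is known to bind the coding sequence of pluripotency genes such as Nanog, was the fourth most abundant of all known miRNA rows. It stood at 34499.5, 72198 and 39364 CPM in untreated libraries 1 to 3, and at 34795, 75129 and 40108 CPM in ET1 libraries 1 to 3. Library 2 was the highest in both groups, the other libraries lay close together, and the groups overlapped almost fully. The joint row of miR-465a-3p, miR-465b-3p and miR-465c-3p ranked 17 with 12578, 21576 and 12721 CPM untreated and 10933, 22909 and 12659 CPM with ET1. It had the same form, with library 2 highest in each group. miR-470-5p supplied 62.9% to 74.5% of the family's tags, and both rows together supplied 82.7% to 96.8%.

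Next came a pair of rows whose level depended strongly on the library. miR-465c-5p (rank 52) had 891, 66.4 and 3371 CPM in untreated libraries 1 to 3 and 4234, 2021 and 739 CPM in ET1 libraries 1 to 3. Its lowest library was untreated 2, where the 3p row of the same stems was high, and its groups overlapped. miR-871-3p (rank 65) had 884, 185 and 184 CPM untreated and 4443, 149 and 1170.4 CPM with ET1. ET1 library 1 stood highest, ET1 library 2 lowest, and the groups overlapped here too.

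The next 5 rows had means of 104 to 227 CPM. miR-741-3p stood at 203, 465.3 and 144 CPM untreated and 126, 315 and 108 CPM with ET1. miR-743a-3p stood at 135, 395 and 105.9 CPM untreated and 131, 245 and 154 CPM with ET1. miR-471-3p stood at 172, 426 and 110.2 CPM untreated and 90.5, 222.5 and 119 CPM with ET1. These 3 were again highest in library 2 of each group, and their groups overlapped. miR-871-5p stood at 139, 482 and 113 CPM untreated and 138, 117 and 157 CPM with ET1, so that untreated library 2 alone stood out. miR-465b-5p stood at 134, 260.1 and 84.7 CPM untreated and 25.2, 93.0 and 27.0 CPM with ET1. ET1 library 2 overlapped the untreated range of miR-465b-5p, while the other ET1 libraries lay below it.

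Near the threshold of 10 CPM, the rows just inside were miR-878-5p, with 14.1 to 55.4 CPM, and miR-883b-5p, with 14.4 to 45.7 CPM. Those just outside were miR-465a-5p, with 9.20 to 51.5 CPM, and miR-743b-5p, with 6.76 to 36.0 CPM. At the low end lay mostly the other arms of stems already named. miR-470-3p had 1 to 13 tags in a library, against at least 185243 tags of miR-470-5p, and miR-465d-5p had 1 tag in all. A single tag was 0.141 to 0.211 CPM, depending on the library. Where a library had 0 tags, a level of up to 3 counts, 0.42 to 0.63 CPM, could have been missed.

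**Figure D2:**
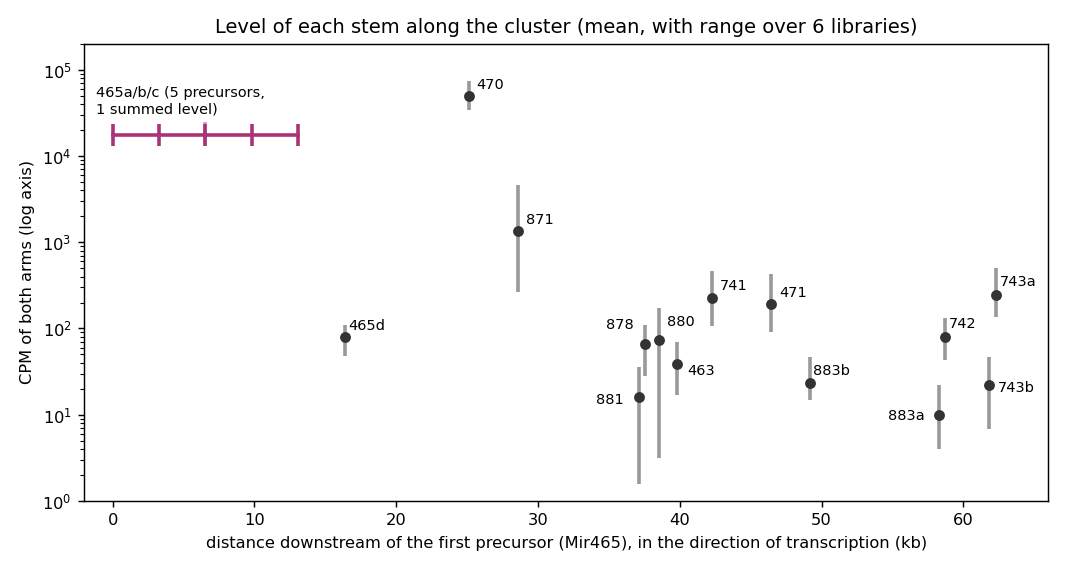
Level of each stem, both arms summed, against the distance of its precursor from Mir465 in the direction of transcription (kb); points are means over 6 libraries, in TMM-scaled CPM on a log axis, and lines run from the lowest to the highest library. The miR-465a/b/c precursors (ticks), drawn as one summed level, and miR-470 lie in the first 25.1 kb at means of 17576 and 49350 CPM, while stems from 37.1 kb on have means of 9.97 to 242 CPM.

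Along the cluster, level went with position in part. In the direction of transcription the 5 precursors of miR-465a, miR-465b and miR-465c come first, within 13.1 kb, and their rows summed to a mean of 17576 CPM. The next precursor, Mir465d at 16.4 kb, had a stem mean of 79.6 CPM, mostly its 3p arm. Mir470 at 25.1 kb had 49350 CPM and Mir871 at 28.6 kb had 1360.0 CPM. The stems from 37.1 to 62.3 kb, miR-881 to miR-743a, had means between 9.97 and 242 CPM. Neighbours could differ widely: the adjacent miR-883a and miR-742 had means of 9.97 and 80.2 CPM, and the adjacent miR-743b and miR-743a had 22.3 and 242 CPM. Precursors of miR-465a, miR-465b and miR-465c cannot be told apart by their 3p tags.

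Most stems used one arm. Tags of miR-470 were at least 99.9963% 5p in every library, and miR-463 was 92.6% to 99.0% 5p. The stems miR-471, miR-741 and miR-742 were 3p, with at most 1.61% 5p tags in any library. miR-743a kept a steady minority of 14.1% to 22.2% 5p. In contrast, the arm with more tags differed between libraries in 3 stems. The 5p share of miR-871 was 13.6%, 72.2% and 38.0% in untreated libraries 1 to 3 and 3.01%, 44.1% and 11.8% in ET1 libraries 1 to 3. That of miR-878 was 34.8%, 93.1% and 12.9% untreated and 21.3%, 43.4% and 80.0% with ET1. In both stems untreated library 2 had the highest 5p share and the groups overlapped. The 3p rows of both moved more than the 5p rows. For miR-871 they ran over 149 to 4443 CPM (3p) and 113 to 482 CPM (5p). For miR-878 they ran over 4.11 to 94.8 CPM (3p) and 14.1 to 55.4 CPM (5p). Whether use of the arms changed between libraries was not tested. The third stem, miR-883a, rested on 239 5p and 102 3p tags in all, with 5p shares of 38.6% to 92.9%. Over the 11 stems with at least 10 tags of each arm, the lowest exact two-sided permutation p between the groups was 0.1, for miR-471, the smallest that 3 libraries against 3 can give, and the adjusted p was 0.825 or more throughout.

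**Figure D3:**
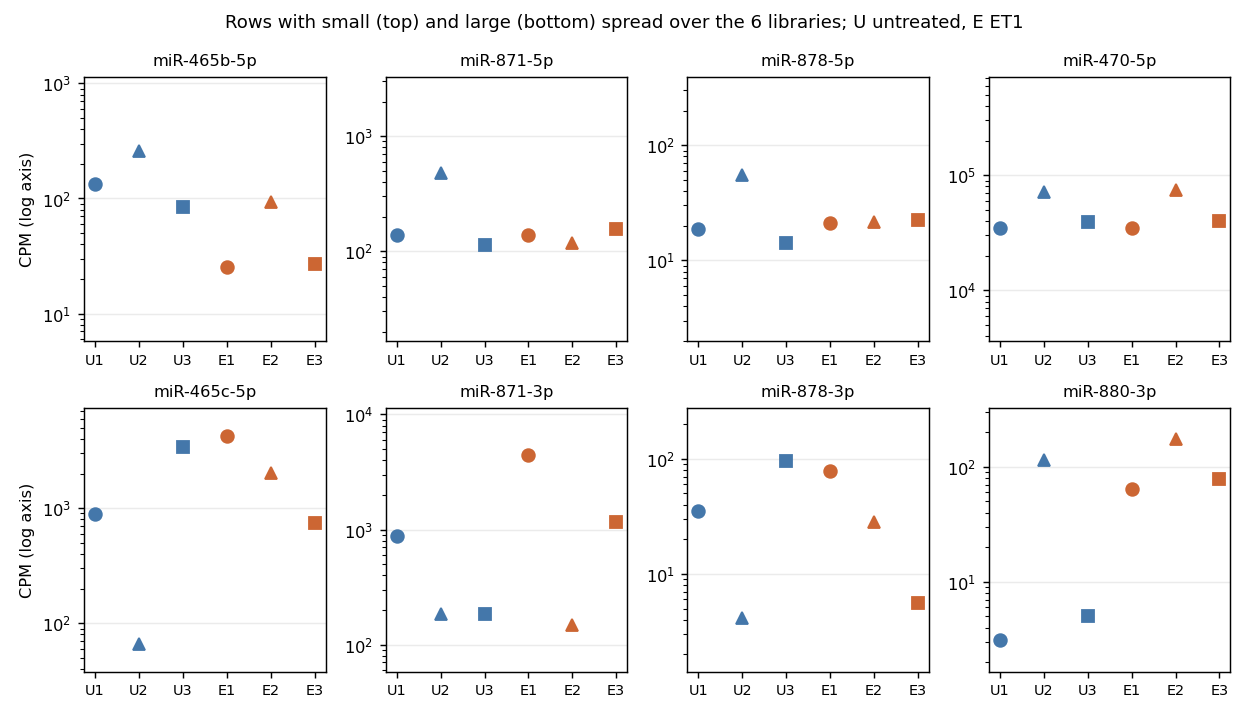
Levels of 8 rows in each library, in CPM on log axes of equal span, for untreated libraries 1 to 3 (U, blue) and ET1 libraries 1 to 3 (E, orange). The upper panels span 2.18-fold to 10.3-fold, while miR-465c-5p, miR-871-3p, miR-878-3p and miR-880-3p in the lower panels span 23.1-fold to 63.8-fold with no common order of libraries.

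The spread between libraries was itself uneven within the family. A set of 398 tested miRNAs had a mean of at least 10 CPM and tags in every library. Their median ratio of highest to lowest library was 2.95, and 37 of them, 9.30%, had a ratio above 10. The highest ratio, 9688 for miR-328-3p, lay outside the family. Of 20 rows of the family in that set, 6 had a ratio above 10: miR-465c-5p at 63.8, miR-880-3p at 55.6, miR-871-3p at 29.9, miR-878-3p at 23.1, miR-881-3p at 22.4 and miR-465b-5p at 10.3. The other 14 lay between 2.10 and 5.60. miR-880-3p, described because of this spread after its values were seen, had 3.10, 115 and 5.03 CPM untreated and 63.7, 173 and 77.7 CPM with ET1. Its untreated libraries 1 and 3 stood far below the others. miR-878-3p, chosen in the same way, had 35.1, 4.11 and 94.8 CPM untreated and 78.3, 28.1 and 5.62 CPM with ET1. Like miR-465c-5p, it was highest in untreated library 3 and ET1 library 1 and lowest in untreated library 2. The sources used here do not give how tags that match several miRNAs, or match with a mismatch, were assigned. The split of tags among miR-465a-5p, miR-465b-5p and miR-465c-5p is therefore uncertain. The part of tag assignment in the spread of miR-871-3p, miR-878-3p and miR-880-3p was not tested.

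Much of the family varied together between libraries of one group. The default edgeR filter on low counts kept 22 of the 30 rows. Of these, 19 were highest among the untreated libraries in library 2, 16 were highest among the ET1 libraries in library 2, and 16 were so in both. Over all 616 miRNAs tested the shares were 33.6%, 34.4% and 14.3%. This pattern was noticed in these data and its rows share libraries and scaling, so the counts are a description. The median excess of library 2 over the mean of the other libraries, on the log2(CPM + 1) scale, was 1.44 untreated and 0.90 with ET1 for the family, against -0.02 and -0.02 for all. The 6 rows outside the pattern were miR-465c-5p, miR-743b-5p and both arms of miR-871 and of miR-878. The next miRNAs on the X chromosome followed it: miR-547-3p had 118, 278 and 139 CPM untreated and 87.9, 191 and 59.0 CPM with ET1, and miR-201-5p had 23.3, 54.7 and 21.1 CPM untreated and 11.6, 24.3 and 12.1 CPM with ET1.

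Markers of some other cell types moved in the same way. Highest in library 2 of both groups were 4 of 8 tested epithelial markers (miR-200a-3p, miR-200b-3p, miR-141-3p and miR-429-3p), 2 of 3 pluripotent and early germ cell markers (miR-292a-3p and miR-293-3p), 1 of 2 Sertoli and gonadal markers (miR-202-5p) and 1 of 4 smooth muscle and myoid markers (miR-1a-3p). None of 5 meiotic and later germ cell markers and none of 3 mesenchymal markers was. Nor was any of 2 endothelial, 2 leukocyte and 1 red cell markers. The meiotic sum was highest in ET1 library 3, at 1478 CPM against 466 to 726 CPM elsewhere. Tags of catalogued piRNAs, a small RNA of germ cells, were 0.764%, 1.48% and 1.17% of all tags in untreated libraries 1 to 3. With ET1 they were 1.38%, 1.39% and 1.41%, so that library 2 was the highest in the untreated group only. miR-200b-3p had 44.8, 131 and 41.1 CPM untreated and 28.4, 51.1 and 29.5 CPM with ET1. The part of these cell types in the family's pattern was not tested.

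The comparison of ET1 with untreated cells asks whether 5 min of ET1 altered the family's levels. No row of the family passed the edgeR quasi-likelihood test at an adjusted p of 0.05, of 22 tested, where 1.79% of all 616 tested miRNAs passed (11 miRNAs). At an unadjusted p under 0.05 there was 1 row, miR-465b-5p, against 18.3% of all miRNAs tested. None of the 22 tested rows had groups that did not overlap, where 23.5% of all tested miRNAs did. Of the 8 rows with too few tags for the filter, miR-471-5p (0.168 to 0.85 CPM untreated, 1.05 to 1.31 CPM with ET1) and miR-883a-3p (0.282 to 1.17 CPM untreated, 1.23 to 11.0 CPM with ET1) did not overlap. The share among all miRNAs below the filter was not computed, so nothing is read from this count. miR-471-5p had only 1 to 7 tags in a library. DESeq2 called 1 of the 24 rows it tested, miR-883a-3p, against 5.21% of all miRNAs it tested, and 3 had an unadjusted p under 0.05, against 15.9%. The median log2 fold change of the 22 rows was -0.26 against 0.0058 for all miRNAs tested, and 15 rows lay below 0 (68.2% against 49.5% of all). That median depended on single libraries: leaving out untreated library 2 gave 0.34, leaving out the third ET1 library gave 0.0071, and leaving out ET1 library 2 gave -0.65, with the remaining libraries in between. With library sizes alone the median of all tested miRNAs moved to 0.37 and that of the family to 0.08, with 12 rows above 0 in place of 7.

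**Figure D4:**
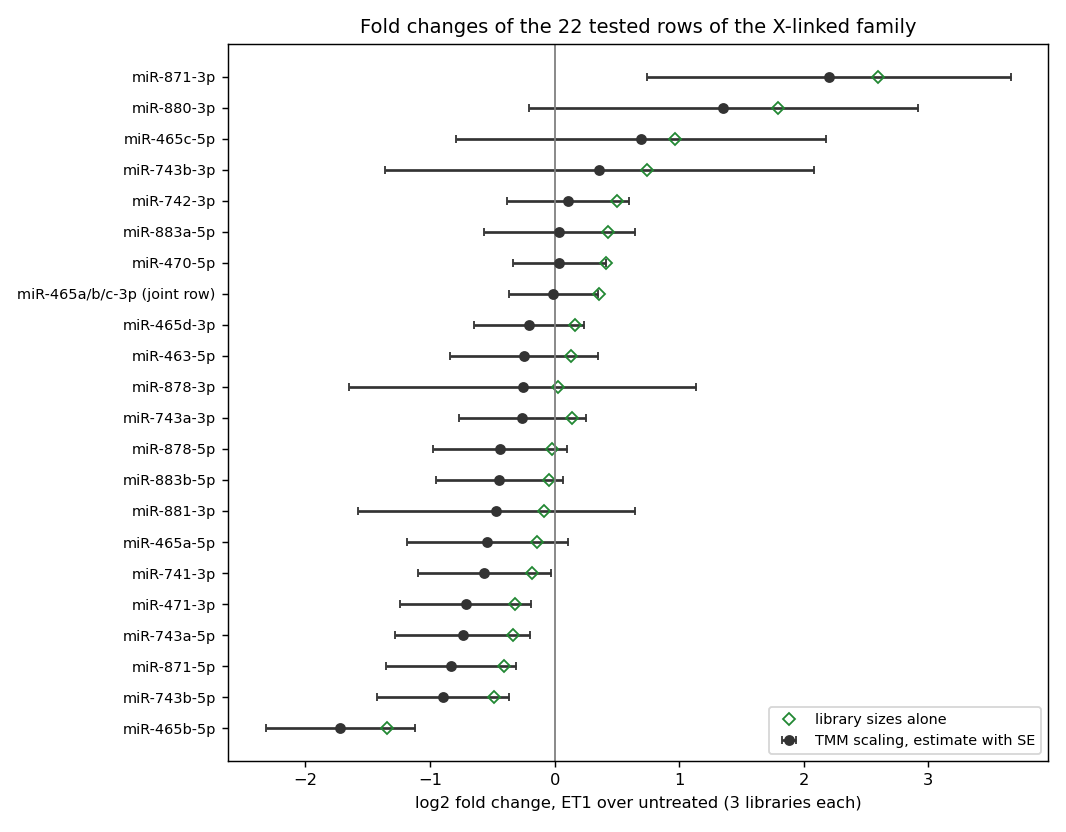
Log2 fold change, ET1 over untreated (3 libraries each), of the 22 tested rows: points with bars are edgeR estimates with SE after TMM scaling, open diamonds the estimates with library sizes alone. No row passed the test, and the diamonds lie to the right of the points in every row.

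After TMM scaling, the abundant rows had estimates near 0. By edgeR, the log2 fold change of miR-470-5p was 0.04 (SE 0.37, adjusted p = 0.965) and that of the joint miR-465 3p row was -0.01 (SE 0.36, adjusted p = 0.988). A change no larger than these errors was not detectable, and a change well above them could also have failed the test. For comparison, miR-465b-5p did not pass at -1.72 (SE 0.60). With library sizes alone the estimates were 0.41 for miR-470-5p and 0.36 for the joint row. The TMM factors did not overlap between the groups, at 0.816 to 0.955 untreated and 1.08 to 1.18 with ET1. The rows with a wide spread had wide errors: 2.20 for miR-871-3p (SE 1.46, edgeR adjusted p = 0.505), the highest of the 22, and 0.69 for miR-465c-5p (SE 1.49, edgeR adjusted p = 0.860). miR-871-3p was below its lowest untreated library in ET1 library 2, so the ET1 libraries did not move one way.

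miR-465b-5p had the lowest estimate, -1.72 (SE 0.60, edgeR adjusted p = 0.120), and the lowest adjusted p of the family. Its adjusted p over 13 edgeR fits ran from 0.0155 to 0.427 and was below 0.05 in 3 of them. It was 0.0155 with no filter on low counts, where 2.7% of all tested miRNAs passed, 0.0268 with the replicate number as a block, where 3.41% passed, and 0.0456 without ET1 library 2, where 1.34% passed (all by edgeR). Its estimate stayed negative without any 1 library, between -2.65 and -1.17. miR-465c-5p, which differs from it by U13C, had an estimate of the opposite sign in the same libraries, and the difference between the 2 rows was not tested. The joint 3p row of the same stems differed little between groups after TMM scaling, as given above.

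miR-880-3p passed only in the fit without untreated library 2, and miR-883a-3p only by edgeR with no filter and by DESeq2. miR-880-3p had an edgeR log2 fold change of 1.35 (SE 1.56, adjusted p = 0.711), and of 4.68 (SE 0.68, adjusted p = 0.0021) without untreated library 2, the library with 115 CPM, a fit in which 0.778% of all tested miRNAs passed. Over 13 edgeR fits its adjusted p ran from 0.0021 to 0.942, and DESeq2 gave it no p-value. miR-883a-3p had 2, 7 and 7 tags untreated and 27, 52 and 7 tags with ET1, too few for the default filter. Its log2 fold change was 2.76 (adjusted p = 0.0055) by edgeR with no filter and 2.77 (adjusted p = 0.041) by DESeq2, while its adjusted p was 0.052 to 0.219 in the other edgeR fits that kept it. ET1 library 3 was level with the untreated libraries. Both were named after their values were seen.

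Several other measures did not overlap between the groups. Known miRNAs were 38.8%, 45.6% and 30.1% of all tags untreated and 25.5%, 22.6% and 24.8% with ET1, so that as a share of all tags the family was 1.63% to 3.61% untreated and 1.62% to 2.48% with ET1, with the ET1 mean lower by 0.40 percentage points, a reversed sign against the share of miRNA tags. Ribosomal RNA tags were 3.22% to 5.63% untreated and 7.12% to 11.0% with ET1. The smooth muscle and myoid marker sum was 20613 to 27942 CPM untreated and 13052 to 15594 CPM with ET1. The mesenchymal sum was 5454 to 7279.8 CPM and 8588 to 11454 CPM, and the epithelial sum 383 to 579.7 CPM and 231 to 305 CPM. Rows within a list differed. miR-143-3p had 17741 to 25167 CPM untreated and 10456 to 13423 CPM with ET1. miR-145a-5p overlapped, at 2116 to 3128 CPM and 2104 to 2683 CPM. The mesenchymal marker miR-214-3p had 2780 to 5647 CPM and 6625 to 9065 CPM. miR-199a-3p, a joint row with miR-199b-3p, overlapped at 1297 to 2559 CPM and 1501 to 2170 CPM. Among epithelial markers, miR-183-5p did not overlap and miR-200b-3p did. The endothelial marker sum was 1107 to 1883 CPM untreated and 114 to 163 CPM with ET1. The leukocyte marker sum was 236 to 323 CPM untreated and 36.3 to 40.6 CPM with ET1, through miR-150-5p at 217 to 319 CPM and 21.6 to 30.01 CPM. The other leukocyte markers were not lower as a group: miR-223-3p had 4.23 to 17.7 CPM untreated and 6.67 to 15.8 CPM with ET1, and miR-142a-3p had 0 to 1.01 CPM and 1.40 to 2.96 CPM. The part of these differences in the estimates above was not tested.

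A list of 32 stems outside the family, each with a gene on the X chromosome, was read by name. Rows of a second gene elsewhere, such as miR-92a-1-5p, were therefore included. Of the 32 stems, 30 had rows, and 35 rows were tested. None passed by edgeR, against 1.79% of all miRNAs tested, and 7 had an unadjusted p under 0.05, against 18.3%. The median log2 fold change of the 35 rows was -0.41, with 13 above 0. The most abundant was miR-652-3p, at a mean of 85909 CPM.

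In the authors' deposited table, which compares counts pooled over the 3 libraries of each group, 24 of the 29 family rows with a q-value had q under 0.05, 15 of them higher and 9 lower with ET1. Of all 1147 known miRNA rows with a q-value there, 67.5% had q under 0.05, so the family's share is read against that. The authors' deposited table gave a log2 ratio of 2.54 for miR-871-3p, 1.13 for miR-465c-5p, 0.33 for miR-470-5p and -1.48 for miR-465b-5p. The authors' deposited table holds no term for the spread between libraries, and for miR-871-3p the ET1 libraries behind its pooled value ran from 149 to 4443 CPM.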

How the data were processed

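Per the labels' protocols, RNA was isolated with TRNzol reagent and sequenced by a BGI small RNA protocol. Bowtie2 and mm10 are named, per the submitters' processing notes, and the annotation databases and the handling of tags with several matches are not given in the sources used here. The authors deposited raw tag counts per library and, from the values, an RPM headed TPM, which was not tested. Their comparison table holds deposited log2 ratios, p-values and q-values from pooled counts, its log2 ratio being shifted by a constant, with pooled counts equal to the library sums for all 30 rows. The 4 rows of totals, 44.3% to 61.4% of a library's tags, entered no fit.

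The test across known miRNAs was that of edgeR 4.0.16 under R 4.3.3 (TMM over their rows, default filter, robust quasi-likelihood fit with group, two-sided, Benjamini-Hochberg adjustment over 616 miRNAs). The script was tested on simulated counts. Alternatives were DESeq2 1.42.0, other scalings, filters and rows, a replicate block and leaving out each library. Pairs of libraries of one group differed by more than sampling noise. The labels do not say that equal numbers mark a shared culture, animal or day, so the main fit did not take the numbers as pairs. Deviations from the group mean correlated at 0.29, 0.069 and 0.28 between same-numbered libraries, and at -0.25 to -0.0003 between libraries of unlike number. Pairing is therefore possible, and the replicate block is the fit that allows for it.

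Named rows were those with a mean of at least 100 CPM, those that passed, the highest and lowest fold change, and the 2 nearest rows on each side of 10 CPM. Members, lists and rules were chosen with earlier results of these data known. Positions and sequences are from RefSeq, GRCm38.p6.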

Additional observations from a re-analysis of the deposited data

How the results depend on the processing

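Against 11 known miRNAs called by edgeR, 41 were called with library sizes alone, 37 with no filter on low counts, 21 with the replicate block, 0 with all small RNA rows fitted together (by edgeR, 116 at an unadjusted p under 0.05), 38 by DESeq2, and 2 to 30 without 1 library. Against 0 rows of the family, 2 were called with no filter, 1 with the replicate block, 1 by DESeq2, and 0 to 1 without 1 library. Each library of the untreated group correlated best with the ET1 library of its own number, which is a hint from the data only. At 100 CPM, 6 rows were expressed.

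The family's share differed by -0.40 percentage points with all tags as denominator, against 2.09, and by 0.57 to 3.09 without 1 library. The median difference in 5p share, near 0 (-0.00015 points), was -1.06 with the joint stems left out, -6.99 at 50 tags of each arm, and -2.84 to 0.00083 without 1 library.

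The log2 fold change of miR-470-5p was -0.032 with DESeq2 size factors or DESeq2, -0.030 with no filter and -0.48 with all rows together. That of the joint miR-465 3p row was 0.36 with library sizes alone and 0.065 with the stricter filter of 10 CPM, and that of miR-743a-3p 0.14 with library sizes alone. Without 1 library the estimates ran from -0.41 to 0.44 for miR-470-5p, -0.44 to 0.29 for the joint row, -0.038 to 2.29 for miR-465c-5p, -1.30 to 0.42 for miR-465a-5p, -1.21 to 0.025 for miR-471-3p, -1.25 to 0.082 for miR-741-3p, -0.61 to 0.55 for miR-743a-3p, -1.15 to 0.11 for miR-871-5p, -0.74 to 0.40 for miR-878-5p and -0.71 to 0.18 for miR-883b-5p. The causes were not tested. miR-871-3p (0.61 to 3.39) and miR-743b-5p (-1.19 to -0.36) kept their sign without any 1 library. The median of the tested rows ran from -0.65 to 0.34. Where a library had 0 tags of a row, a level of up to 3 counts, 0.42 to 0.63 CPM, could have been missed.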
